A study of Mus musculus with 4 samples.

Results

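The genes described here are 9 cytokines chosen by name, the colony-stimulating factors *Csf1*, *Csf2* and *Csf3* and the interleukins and related factors *Il6*, *Il11*, *Lif*, *Il1a*, *Il33* and *Tslp*, out of 20197 measured genes. The choice was made with earlier results of these data known, so shares of the 9 beside all genes only describe this list. All 9 were found in the data, and all were above 0 in each of the 4 libraries. RNA was sequenced from 4T1, a breast cancer line of the mouse that forms metastases in the lung. The cells were labelled wild type, took up the mitochondrial dye MitoSpy Red at 20 nM, and were sorted by flow cytometry. The high MMP group holds the 5% of cells with the highest mitochondrial membrane potential (MMP) and the low MMP group the 5% with the lowest, with 2 libraries each, so all samples share the line, the dye and the sort. The study counts its replicates as separate experiments or tumors, but the labels do not tie the libraries to cultures or sorts, and p-values measure only the spread between these libraries.

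Colony-stimulating factors are secreted proteins that drive blood progenitors to form macrophages and granulocytes, and 4T1 tumors are known for expanding granulocytes in the host. Interleukin 6, interleukin 11 and leukemia inhibitory factor bind receptors that share the signalling chain gp130 (*Il6st*) and act through JAK kinases and STAT3. Interleukin 1 alpha, interleukin 33 and TSLP are alarmins, which epithelial cells release when damaged or stressed. Many cytokine genes are switched on by the transcription factors AP-1, NF-kB and C/EBP, and their mRNAs are short-lived.

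The libraries held 22591970 to 26395015 reads assigned to genes, and values are normalized reads, scaled so that each library sums to 20000000. At this scale 1 read is worth 0.758 to 0.885, so intervals given below cover counting error only. The epithelial markers *Krt8* and *Krt18* were abundant, with means of 16350 and 16207 in high MMP cells. Of 6 measured epithelial markers, the summed level was 47592 to 65174 in high MMP and 54730 to 62416 in low MMP cells. *Cdh1*, which encodes E-cadherin, had 3903 and 4726 normalized reads in high MMP 1 and 2 against 5421 and 5426 in low MMP 1 and 2 (log2 difference -0.34, SE 0.12; limma unadjusted p = 0.0491, adjusted p = 0.498). *Krt14*, a keratin of basal cells, had 1368 and 1529 against 1226 and 1100.4 (log2 difference 0.32, SE 0.10; limma unadjusted p = 0.0364, adjusted p = 0.472). Apart from *Pdgfra*, given below, markers of other cells were near 0 or low. *Ptprc*, which marks all leukocytes, had 0 to 2 reads per library, and the 2 measured endothelial markers summed to 1.74 to 6.20. The 5 measured leukocyte markers summed to 108 and 160 in high MMP and 158 and 111 in low MMP cells, mostly *Cd68*. *Cd68* differed by -0.35 (SE 0.50) and *Csf1r* by -0.01 (SE 0.43), and *Ly6g*, a granulocyte marker, had 0 to 2 reads per library. *S100a8* had 48 and 13 reads in high MMP 1 and 2 against 2 and 5 in low MMP 1 and 2. Its log2 difference was 2.45 (SE 0.73; limma adjusted p = 0.472). With the replicate number as a block edgeR called it (adjusted p = 0.00225), and with no block edgeR did not (adjusted p = 0.689). DESeq2 gave it no adjusted p. The 5 measured fibroblast markers summed to 343 and 405 in high and 582 and 632 in low MMP cells, mostly *Pdgfra*. Its log2 difference was -0.72 (SE 0.11). *Col1a1*, at 8 to 39 reads per library, and *Pdgfrb*, at 8 to 12, differed by -1.04 (SE 0.79) and -0.52 (SE 0.32). *Dcn*, at 2 to 12 reads, and *Col1a2*, at 0 to 4, went the other way, by 0.67 (SE 0.67) and 0.51 (SE 0.81). DESeq2 called *Pdgfra* as lower in high MMP cells (adjusted p = 0.0399), and limma did not (adjusted p = 0.472). It was also not called by edgeR with no block (adjusted p = 0.580) or with the replicate block (adjusted p = 0.0511). The part of these genes in the cytokine values was not tested. In bulk samples, fewer cells of a kind and less RNA per cell cannot be told apart.

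The stretches before the transcript start of 4 cytokine genes are shown because they hold a match to the motif of AP-1, a dimer of FOS and JUN proteins, and belong to genes with both many and few reads. Sequences are from RefSeq on GRCm38.p6, on the strand of the gene, and stop before the first annotated exon. Capitals mark a match on either strand to TATAAA (the TATA box), TGANTCA (AP-1), GGG and TTTCC with any 2 bases between (NF-kB) or TTNNGNAA (C/EBP).
*Il11*, chr7:4778142-4778391, minus strand: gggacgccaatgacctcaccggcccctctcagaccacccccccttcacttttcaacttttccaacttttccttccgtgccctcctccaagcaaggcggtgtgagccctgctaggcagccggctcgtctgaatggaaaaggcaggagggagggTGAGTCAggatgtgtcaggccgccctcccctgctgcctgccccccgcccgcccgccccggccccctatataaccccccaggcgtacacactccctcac
*Lif*, chr11:4257318-4257556, plus strand: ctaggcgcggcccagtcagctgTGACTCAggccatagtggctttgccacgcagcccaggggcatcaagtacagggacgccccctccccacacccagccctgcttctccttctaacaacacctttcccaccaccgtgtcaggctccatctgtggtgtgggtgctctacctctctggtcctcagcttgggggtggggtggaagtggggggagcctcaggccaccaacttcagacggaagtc
*Il1a*, chr2:129309973-129310222, minus strand: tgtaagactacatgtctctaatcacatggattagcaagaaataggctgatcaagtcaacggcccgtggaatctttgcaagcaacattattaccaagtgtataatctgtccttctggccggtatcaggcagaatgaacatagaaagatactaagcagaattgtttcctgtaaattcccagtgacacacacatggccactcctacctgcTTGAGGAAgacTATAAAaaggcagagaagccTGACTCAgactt
*Il6*, chr5:30012864-30013113, plus strand: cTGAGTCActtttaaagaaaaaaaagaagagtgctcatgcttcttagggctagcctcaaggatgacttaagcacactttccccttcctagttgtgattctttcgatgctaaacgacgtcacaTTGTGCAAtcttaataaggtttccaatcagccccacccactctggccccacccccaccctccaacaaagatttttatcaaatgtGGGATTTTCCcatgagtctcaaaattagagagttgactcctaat

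AP-1 letters were found in 4 of the 9 windows of 7 cytokine genes, each in another gene, against 6.75% of 32851 windows of 250 bases over all genes. In *Il11* the match is TGAGTCA at -98 to -92 from the start. This *Il11* window lies in the intron of longer transcripts that start farther upstream. In *Lif* TGACTCA lies at -228 to -222. *Il1a* has TGACTCA at -12 to -6, next to a TATA box at -32 to -27 and a C/EBP match at -43 to -36. NF-kB letters, present in 1.41% of all windows, were found in *Il6* at -44 to -35 and in *Csf1* at -154 to -145, where the strand of the gene reads GGAAAGTCCC, the motif on the opposite strand. *Il6* also has AP-1 letters at -249 to -243 and a C/EBP match at -128 to -121. TATA and C/EBP letters are common, in 12.4% and 36.8% of all windows, and none of the matches shown overlaps another. A match is a description of letters and not of a bound site. *Csf3* had no window, and the chromosome of *Tslp* was left out when windows of the cytokine genes were taken. Neither gene is shown or is among the 7 genes counted. The RefSeq start of *Csf2* lies 232 bases upstream of its start in GENCODE, so its window was counted but not printed. That window held C/EBP letters and none of the letters for AP-1, NF-kB or the TATA box.

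**Figure D1:**
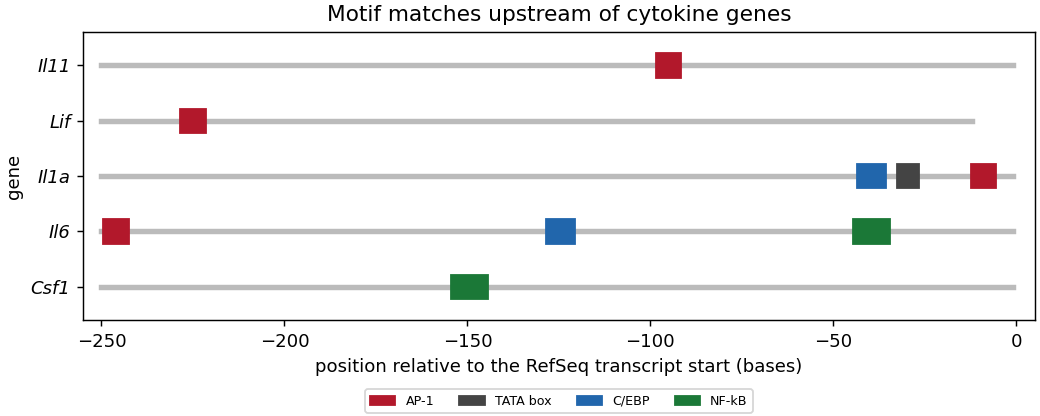
Motif matches (colored boxes) in the RefSeq window upstream of 5 cytokine genes (grey lines), by position in bases from the transcript start. The *Lif* line is shorter, at 239 bases, because it stops at the first exon in GENCODE. AP-1 boxes are seen in *Il11*, *Lif*, *Il1a* and *Il6* and NF-kB boxes in *Il6* and *Csf1*.

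The cytokine genes covered a wide range of levels, and 2 of the 9 were close to undetected. Levels between genes were compared as RPKM, the reads of a gene per length of its exons and per size of the library, averaged over the 4 libraries. *Csf3*, which encodes the granulocyte factor G-CSF, had the highest level at 191 RPKM (176 to 214 over the libraries). *Il1a* followed at 122 RPKM (105 to 157). *Lif* at 75.8 and *Tslp* at 75.4 RPKM could not be ordered, since *Lif* spanned 56.8 to 84.9 and *Tslp* 58.2 to 96.8. *Csf1* had 44.8 RPKM (38.3 to 62.5), which overlaps the range of *Tslp*. *Csf2*, between 2.62 and 19.7 RPKM, and *Il11* at 4.83 (3.04 to 5.97) also overlapped each other. *Il6* at 0.214 and *Il33* at 0.115 RPKM had overlapping ranges and stood far below the other 7. *Il6* rests on 7 to 16 reads and *Il33* on 2 to 13 reads per library.

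The study sorted cells by MMP to relate mitochondrial activity to metastasis, and high against low MMP asks here whether these cytokines are expressed differently. In the limma test 0 of the 9 genes passed an adjusted p under 0.05, as did 0 of 20197 genes (0%). At an unadjusted p under 0.05, *Tslp* and *Il11* were higher in high MMP cells, 2 of 9, where 3.95% of all genes were higher at that level. Both high MMP libraries lay above both low MMP libraries for *Csf1*, *Il11*, *Lif* and *Tslp*, 4 of 9 where 13.5% of all genes did so, and the reverse held for 0 of 9 where 24.5% of all genes did so. The median log2 difference of the 9 genes was 0.33, and that of all genes -0.04. Without low MMP replicate 1 the median of the 9 was 0.10. In edgeR 0 of 9 passed with no block or with the replicate number as a block, which called 0.312% of all genes as higher. With crossed numbers as the block, chosen after seeing the data, edgeR called *Csf1*, *Il11* and *Tslp* as higher, 3 of 9 where 1.74% of all genes were called higher. An exact permutation test of 2 against 2 libraries cannot go below p = 0.333 and was not used for single genes.

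**Figure D2:**
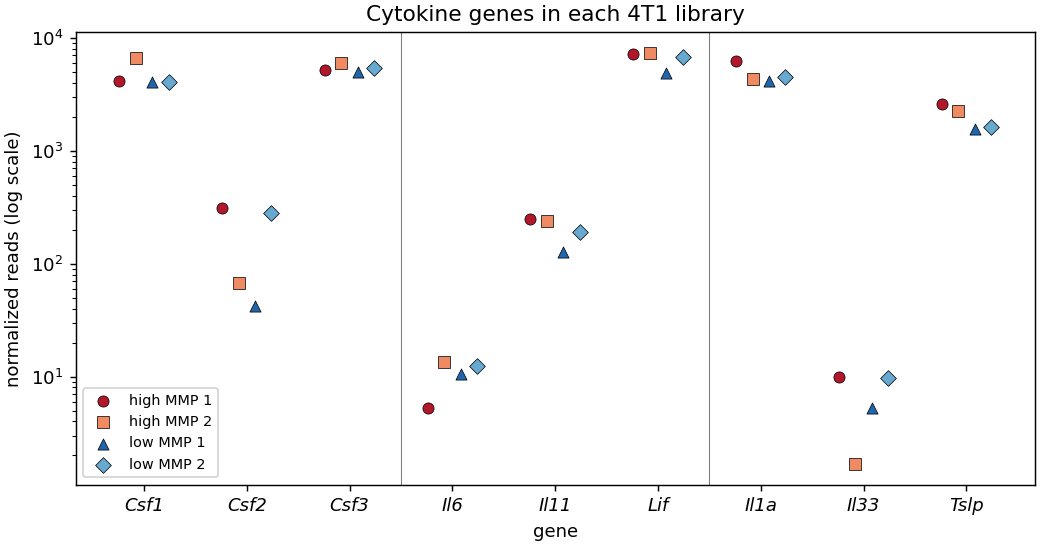
Normalized reads (log scale) of the 9 cytokine genes in each library, with circles and squares for high MMP 1 and 2 and triangles and diamonds for low MMP 1 and 2, and grey lines between colony-stimulating factors, gp130 ligands and alarmins. *Tslp* separates the groups (2274 and 2577 against 1550.0 and 1626), *Csf2* spreads within both, and *Il6* and *Il33* lie at 13.4 or below.

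Among the colony-stimulating factors, none separated the groups beyond the spread of the libraries. *Csf3* (ENSMUSG00000038067, chromosome 11, 98701263 to 98703629) had 5243 and 6041 normalized reads in high MMP 1 and 2 and 4966 and 5383 in low MMP 1 and 2. The groups overlapped, and the most abundant cytokine of the set was also one of the steadiest, with its highest library 1.22-fold above its lowest. Its means were 5642 ± 564 and 5175 ± 295 (SD, n = 2 each), and the log2 difference was 0.12 (SE 0.11; limma adjusted p = 0.822). Without high MMP replicate 2 it was 0.02, and without high MMP replicate 1 it was 0.22.

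*Csf1* (ENSMUSG00000014599, chromosome 3, 107741048 to 107760469), the growth and survival factor of macrophages, had 4154 and 6603 normalized reads in high MMP 1 and 2 and 4109 and 4042 in low MMP 1 and 2. High MMP 2 alone stood apart, and high MMP 1 was close to the low MMP libraries. The means were 5379 ± 1732 and 4075 ± 47.0 (SD, n = 2 each), and the log2 difference was 0.36 (SE 0.24; limma adjusted p = 0.740). Without high MMP replicate 2 the difference was 0.03, and without high MMP replicate 1 it was 0.70.

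*Csf2* (ENSMUSG00000018916, chromosome 11, 54247271 to 54249667), which encodes the granulocyte-macrophage factor GM-CSF, had 314 and 67.8 normalized reads in high MMP 1 and 2 and 41.8 and 279.7 in low MMP 1 and 2. One library of each group was high and the other low, and the groups overlapped fully. The means were 191 ± 174 and 161 ± 168 (SD, n = 2 each), and the log2 difference was 0.43 (SE 1.21; limma adjusted p = 0.970), which was -0.67 without high MMP replicate 1 and -0.93 without low MMP replicate 1. The spread was not counting error. High MMP 1 had 415 reads (exact Poisson 95% interval 376 to 457) and low MMP 2 had 316 (282 to 353), while high MMP 2 had 81 (64.3 to 101) and low MMP 1 had 48 (35.4 to 63.6). Its highest library was 7.51-fold above its lowest, and a ratio of 4 or more was seen in 14 of 9999 genes whose mean reached 100 (0.14%). A transcript on the opposite strand that overlaps *Csf2*, *Gm12223*, had 1.77 normalized reads or fewer in each library.

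The genes with a library pattern most like that of *Csf2* were looked for after its values were seen. Likeness was the root-mean-square distance between log2 values centred on their mean over the 4 libraries, among genes whose mean reached 100. *Fos*, a subunit of AP-1, was nearest at 0.06 log2 units, with 2419 and 521 normalized reads in high MMP 1 and 2 and 326 and 2357 in low MMP 1 and 2. *Atf3*, a stress-induced transcription factor, came next at 0.26, with 1934 and 490.4 in high and 377 and 1515 in low MMP cells. *Tcim*, *Rcan1*, *Nppb* and *Gm26532* followed, at 0.27 to 0.42. *Fosb*, another AP-1 subunit and the gene at rank 7, had 4855 and 601 against 389 and 5063. *Socs3*, a feedback inhibitor of cytokine receptors at rank 8, had 769.8 and 267 against 297 and 1103. High MMP 1 and low MMP 2 were thus the high libraries for *Csf2* and for these 4 genes, and their part in the *Csf2* values was not tested.

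**Figure D3:**
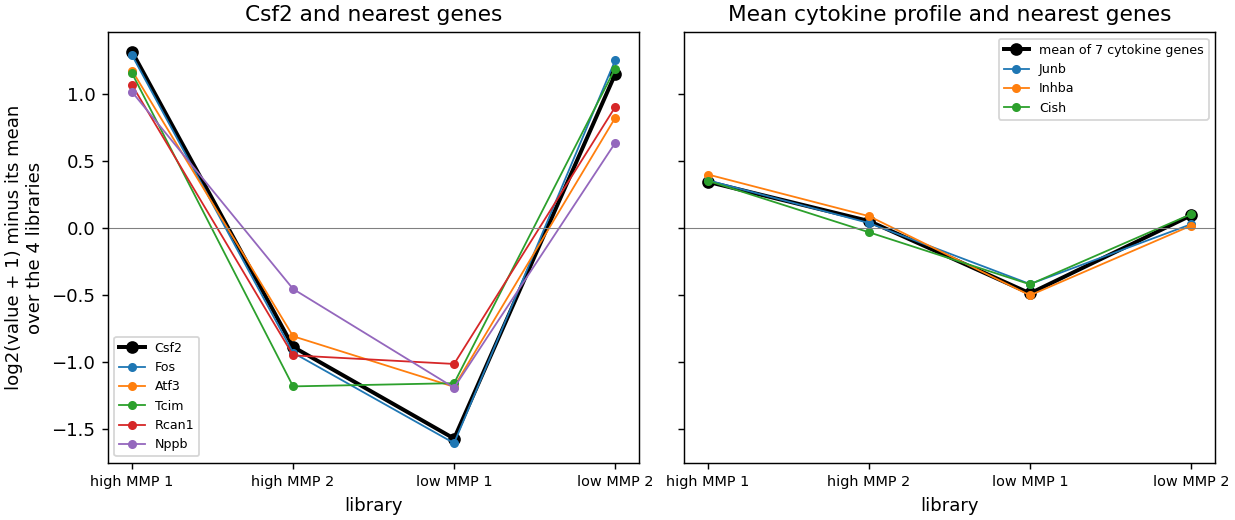
log2(value + 1) minus its mean over the 4 libraries, with lines joining the libraries for reading only. Left, *Csf2* (black) with its 5 nearest genes, all high in high MMP 1 and low MMP 2. Right, the average of the 7 cytokine genes whose mean reached 100 (black) and its 3 nearest genes, lowest in low MMP 1.

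Of the gp130 ligands, *Il11* and *Lif* had higher values in both high MMP libraries, and *Il6* was too low to compare. *Il11* (ENSMUSG00000004371, chromosome 7, 4772373 to 4782859), a cytokine linked to bone metastasis and fibrosis, had 249 and 238 normalized reads in high MMP 1 and 2 and 126 and 191 in low MMP 1 and 2. The high MMP libraries were close to each other and above both low MMP libraries, which differed more. The means were 244 ± 7.10 and 159 ± 45.8 (SD, n = 2 each), with a ratio of 1.53 and a log2 difference of 0.64 (SE 0.23; limma unadjusted p = 0.0466, adjusted p = 0.493). Without low MMP replicate 1 it was 0.35, and without low MMP replicate 2 it was 0.94.

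*Lif* (ENSMUSG00000034394, chromosome 11, 4257557 to 4272514), which holds embryonic stem cells undifferentiated and acts on many tissues, had 7226 and 7385 normalized reads in high MMP 1 and 2 and 4942 and 6815 in low MMP 1 and 2. Low MMP 1 was well below the other 3 libraries, and the low MMP libraries differed more than the high MMP libraries. The means were 7306 ± 112 and 5878 ± 1324 (SD, n = 2 each), and the log2 difference was 0.33 (SE 0.18; limma adjusted p = 0.679), which was 0.10 without low MMP replicate 1.

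*Il6* (ENSMUSG00000025746, chromosome 5, 30013114 to 30019981), an inflammatory cytokine, had 7 and 16 reads in high MMP 1 and 2 and 12 and 14 in low MMP 1 and 2. The exact Poisson 95% intervals of all 4 libraries overlapped, from 2.13 to 10.9 normalized reads in high MMP 1 to 7.65 to 21.7 in high MMP 2, so no difference was detectable at this depth. The log2 difference was -0.38 (SE 0.51; limma adjusted p = 0.895), and without high MMP replicate 1 it was 0.22. The *Il6* window shown above, with its NF-kB, AP-1 and C/EBP letters, thus belongs to a gene with few reads, whereas those of *Lif* and *Il1a* belong to abundant ones.

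Of the alarmins, *Tslp* had the smallest unadjusted p of the 9 genes. *Tslp* (ENSMUSG00000024379, chromosome 18), which acts on dendritic cells and on cells of type 2 immunity, had 2577 and 2274 normalized reads in high MMP 1 and 2 and 1550.0 and 1626 in low MMP 1 and 2. The groups did not overlap, and replicates were closer to each other than to the other group. The means were 2425 ± 214 and 1588 ± 53.9 (SD, n = 2 each), with a ratio of 1.53 and a log2 difference of 0.61 (SE 0.10; limma unadjusted p = 0.00281, adjusted p = 0.472). DESeq2 on whole reads recovered from the values called it (adjusted p = 0.00540), as 1 of 81 genes that it called higher in high MMP cells (0.401% of all), and edgeR did not (adjusted p = 0.567; 0 genes called, 1423 at an unadjusted p under 0.05). The difference lay between 0.52 and 0.70 over all alternatives run.

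*Il1a* (ENSMUSG00000027399, chromosome 2, 129299610 to 129309972), which signals through the interleukin 1 receptor without the need for cleavage, had 6218 and 4368 normalized reads in high MMP 1 and 2 and 4140.0 and 4541 in low MMP 1 and 2. High MMP 1 stood above the other 3 libraries, and the groups overlapped. The means were 5293 ± 1308 and 4340.3 ± 283 (SD, n = 2 each), and the log2 difference was 0.27 (SE 0.20; limma adjusted p = 0.765), and without high MMP replicate 1 it was 0.01. Its genomic neighbor *Il1b*, 54597 bases away and encoding the other main ligand of the same receptor, had only 10 to 18 reads per library.

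*Il33* (ENSMUSG00000024810, chromosome 19, 29925114 to 29960718), a nuclear alarmin, had 13 and 2 reads in high MMP 1 and 2 and 6 and 11 in low MMP 1 and 2. The lowest and the highest library were both high MMP libraries. The log2 difference was -0.60 (SE 0.81; limma adjusted p = 0.895), and without high MMP replicate 2 it was 0.41, so no difference was detectable at this depth.

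**Figure D4:**
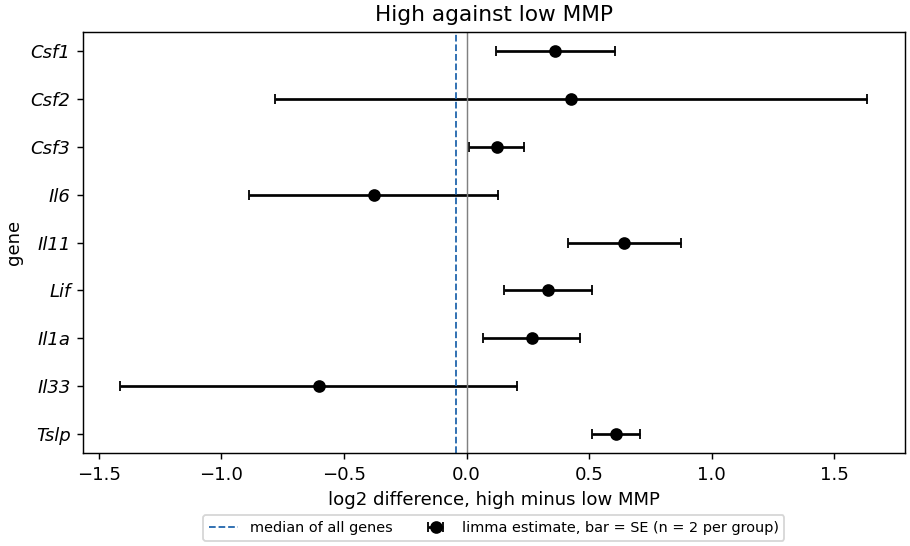
log2 difference of each cytokine gene, high minus low MMP, with the SE of the limma fit as bars (n = 2 per group) and the median of all genes, -0.04, as a dashed line. *Tslp* and *Il11* lie farthest from 0 relative to their bars, and *Csf2*, *Il33* and *Il6* have the widest bars.

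The 7 cytokine genes whose mean reached 100 all had estimates above 0, except *Csf2* when high MMP 1 or low MMP 1 was left out, where 43.0% of 9999 genes at that level did. Their mean profile was 0.34 and 0.05 in high MMP 1 and 2 and -0.49 and 0.09 in low MMP 1 and 2, on the centred log2 scale. Without *Csf2*, an alternative chosen after seeing the data, that of the other 6 was 0.18 and 0.21 in high and -0.31 and -0.08 in low MMP cells. High MMP 1 was thus the highest library only with *Csf2* included, and low MMP 1 was the lowest in both. By the same distance the nearest genes to the profile of all 7 were *Junb*, *Inhba* and *Cish*. *Junb*, an AP-1 subunit, lay at a distance of 0.05 log2 units, with 9496 and 7615 normalized reads in high MMP 1 and 2 and 5558 and 7568 in low MMP 1 and 2. *Inhba*, a subunit of the TGF-beta family ligand activin A, had 3223 and 2599 against 1727 and 2474. *Cish*, a target and inhibitor of STAT5 signalling, had 200.04 and 153 against 117 and 168. None of the 3 passed in limma (adjusted p = 0.602 to 0.786). To the profile without *Csf2* other genes were nearest, *Fosl1*, *Ncaph* and *Tacc3*, at distances of 0.02 to 0.03.

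The receptors for these cytokines were measured in the same cells, and 10 of 15 receptor genes had values to analyse. *Csf2ra*, *Csf2rb*, *Csf2rb2*, *Csf3r* and *Il7r* were not found among the measured genes. *Csf1r*, the receptor of *Csf1*, had 8 to 15 reads per library. *Il6st*, the shared chain for *Il6*, *Il11* and *Lif*, had the most normalized reads of the list (not per length), with 2791 and 4342 normalized reads in high MMP 1 and 2 and 4050.2 and 3647 in low MMP 1 and 2. *Il1rap*, the shared chain of the interleukin 1 and interleukin 33 receptors, had means of 613 and 659. *Il6ra* was the receptor gene with an unadjusted p under 0.05. Its mean was 311 ± 6.62 in the high MMP group against 431 ± 22.1 in the other (SD over 2 libraries), or -0.47 on the log2 scale (SE 0.10; limma adjusted p = 0.472), where 6.01% of all genes were lower at that level.

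Other ligands of the same families were measured for 16 of 26 genes, of which 11 had a mean of at least 10. In limma none passed over all genes, and 2 were higher at an unadjusted p under 0.05, where 3.95% of all genes were. *Il24*, a member of the interleukin 10 family, had 717.6 and 717.2 normalized reads in high MMP 1 and 2 and 479.5 and 466 in low MMP 1 and 2. Its log2 difference was 0.60 (SE 0.08; limma adjusted p = 0.472). DESeq2 called it (adjusted p = 0.0288), where 0.401% of all genes were called higher. With edgeR it was not called, either with no block (adjusted p = 0.524) or with the replicate number as a block (adjusted p = 0.0764). *Il23a*, the specific subunit of interleukin 23, differed by 0.42 (SE 0.13; limma adjusted p = 0.472). *Clcf1*, a ligand of the gp130 family with the most normalized reads of these ligands, had means of 1568 and 1877 in high and low MMP, a log2 difference of -0.25 (SE 0.14; limma adjusted p = 0.690).

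Downstream genes showed no common direction. Of 16 genes of JAK-STAT and MYD88 signalling, 0 passed and 2 were lower at an unadjusted p under 0.05, the kinase *Jak3* by -0.42 (SE 0.10) and the transcription factor *Stat5b* by -0.23 (SE 0.08), where 6.01% of all genes were lower at that level. *Jak1* and *Stat6*, with the most normalized reads of that list, differed by -0.03 and -0.05. Of 15 feedback and target genes, 0 passed at either level, with *Junb* at 0.39 (SE 0.21) and *Nfkbiz* at 0.35 (SE 0.17). Of 14 genes for cytokine mRNA turnover, again 0 passed at either level, and *Hnrnpd* and *Khsrp*, with the most normalized reads, differed by -0.04 and -0.03. *Zfp36*, which binds AU-rich cytokine mRNAs and speeds their decay, had 3641 and 1951 normalized reads in high MMP 1 and 2 and 1382 and 3239 in low MMP 1 and 2, the same high libraries as for *Csf2*; it was named after its values were seen. The 8 measured genes for cytokine processing and shedding had 0 at either level, with *Capn2* and *Capns1*, subunits of the calpain proteases that cleave interleukin 1 alpha, at 0.16 and 0.00.

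**Figure D5:**
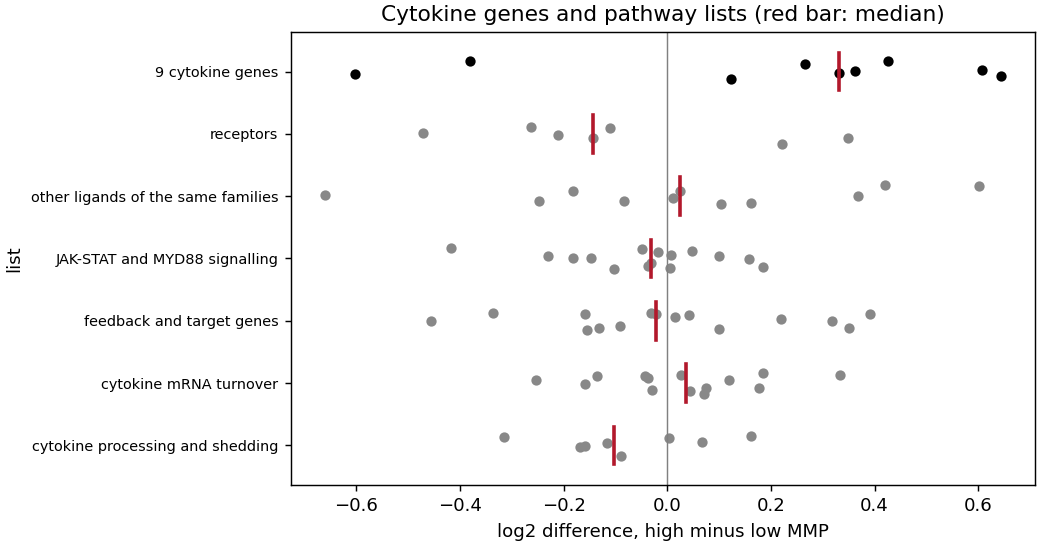
log2 difference, high minus low MMP, of the 9 cytokine genes (black) and of the genes of 6 pathway lists with a mean of at least 10 (grey), with list medians as red bars. The cytokine median is 0.33 and the list medians lie between -0.14 and 0.04. The list labelled as other ligands of the same families also holds ligands of other families.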

How the data were processed

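RNA came from 100000 sorted cells per sample, with 200 ng entering a stranded mRNA library. The authors used STAR for alignment to mouse GRCm38 (mm10) and for counts per gene. They scaled counts to the library total and dropped genes seen in fewer than 2 samples. The kept genes alone sum to 19999998 to 20000001 per library, so the scaling of the deposited values covered the kept genes. HTSeq is also named in the submitters' processing notes. Versions, the annotation release, the strand setting and the handling of shared reads are not given in the sources used here. The deposited values are a normalized signal per gene, and 0 columns belonged to no sample. Every value was a whole multiple of 1 step per library (within 0.02 read), which gave whole reads and depth.

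Identifiers were matched to GENCODE M21 (19993 of 20197). RPKM used the union of exons. log2(value + 1) was tested with limma 3.58.1 (trend, no block) in R 4.3.3, high against low MMP, with Benjamini-Hochberg adjustment over all genes at 0.05. A fold change on this scale understates that of low genes. edgeR 4.0.16 (quasi-likelihood) and DESeq2 1.42.0 were run on recovered reads, and all were tested on simulated data. The simulation drew each gene independently, without a library pattern shared by many genes, so it cannot decide between the methods here. Other alternatives were pseudocounts, a filter, rescaling, quantile normalization, no trend, blocks and leaving out each library. The cytokines and lists were chosen with earlier results of these data known. Named beside the cytokines are the 2 genes of each pathway list with the most normalized reads, its genes with an unadjusted p under 0.05 and a mean of at least 10, and the 3 genes nearest to the mean cytokine profile, and others, cell type markers aside, are marked. 1 gene of a list is not reported here.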

Additional observations from a re-analysis of the deposited data

How the results depend on the processing

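Over 16 alternatives the estimates of *Csf1*, *Csf3*, *Il11*, *Lif*, *Il1a* and *Tslp* kept their sign, and those of *Csf2*, *Il6* and *Il33* reversed only when 1 library was left out. Without 1 replicate, the difference ranged from -0.93 to 1.78 for *Csf2*, from -0.97 to 0.22 for *Il6* and from -1.61 to 0.41 for *Il33*, and the median of the 9 genes from 0.10 to 0.41. Each arm with 1 library was assumed to vary like the other group. The filter on a mean of at least 10 removed *Il33*. DESeq2 called 118 genes and 1 cytokine, *Tslp*. The sources used here do not say whether a replicate number marks a shared sort, so the pairing is not known, and deviations of same-numbered libraries from their group means had r = -0.57 across 9999 genes whose mean reached 100, which are not independent replicates. With the replicate block 0 genes passed in limma and 106 in edgeR, with 0 cytokines in either. With crossed numbers as a block, chosen after seeing the data, limma called 0 genes, and edgeR called 733 genes and 3 cytokines, *Csf1*, *Il11* and *Tslp*. Rescaling moved the median of all genes with a mean of at least 10 from -0.03 to 0.01 and turned no cytokine. At 2 to 16 reads per library, *Il6* and *Il33* are limited by depth, and all 9 genes rest on 2 libraries per group.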

Other observations

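Among 14 genes whose mean reached 100 and whose highest library was 4-fold or more above the lowest, *Fosb* had the widest ratio at 13.02. The others, beside *Csf2*, included *Fos* (7.42-fold), *Atf3* (5.12-fold), *Rcan1* (4.23-fold), *Socs3* (4.13-fold) and the chemokine gene *Cxcl10* (4.46-fold), whose values were 111 and 56.9 normalized reads in high MMP 1 and 2 and 44.5 and 198 in low MMP 1 and 2. It also held *Ung*, a uracil-DNA glycosylase, with a different pattern, at 306 and 167 in high and 826 and 869 in low MMP cells. These genes were chosen by their spread, so no test is given.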
